A study of Mus musculus with 24 samples.

Results

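The genes described here code for proteins that bind fatty acids inside the cell or bring them into it. They are the fatty acid binding proteins Fabp3, Fabp4, Fabp5 and Fabp7, the membrane receptor Cd36, the lipoprotein lipase Lpl, its inhibitor Angptl4 and the lipid droplet coat protein Plin2. The 8 genes were taken by their symbol in the array annotation, which gives them 17 of the 45037 probe sets, out of 18193 genes with a probe set of a single symbol. Each probe set reads one transcript, or a stretch of it, with several short probes. The genes were selected on their log2 differences between hypoxic and normoxic retinas of these arrays, as seen in earlier results, so that their values in that comparison, and in the differences of it between times, are a description and support nothing. No p-value is printed for them there, and where one of the 8 is said to be called, this gives only its status in the fit over all probe sets.

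Retinas came from BALB/c mice, a strain that carries the light-sensitive variant of Rpe65 in both copies, as did all mice of the study. Hypoxic mice were kept for 6 h at 6% oxygen and returned to room air in darkness for 0, 2, 4 or 16 h (reoxygenation), and normoxic control mice were handled in parallel and collected at the same times. Each of the 8 groups had 3 arrays, and each array held 1 pool of 3 retinas of different mice, so a value is a mean over animals and the animals within a pool cannot be told apart. The age of the mice is not given in the sources used here. The treatment text that all samples share in the labels also mentions a light exposure that follows reoxygenation. The extraction text times the retinas from hypoxia alone, so they were taken as unexposed, which the sources used here do not state. The tissue label was checked on 10 rod photoreceptor markers, whose mean log2 signal lay between 13.03 and 13.40 on the 24 arrays. This score was lower in all hypoxic than in all normoxic pools at 0 h (13.20 to 13.23 against 13.35 to 13.37) and at 2 h (13.03 to 13.11 against 13.24 to 13.35). By the mean Euclidean distance to the other arrays, normoxic pool 2 at 0 h (67.3) and normoxic pool 3 at 16 h (67.8) stood apart from the other normoxic pools (55.5 to 60.4). Without both, the log2 change of Fabp4 at 0 h was 2.11, the log2 change of Lpl at 0 h was 0.28 and both were still called, while the log2 change of Fabp5 at 0 h was 0.22.

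Fatty acids are poorly soluble in water, so they circulate as triglyceride in lipoproteins or bound to albumin. Lipoprotein lipase releases them at the vessel wall, Angptl4 inhibits that enzyme, Cd36 helps them across membranes, and fatty acid binding proteins carry them through the cytosol to mitochondria, to the nuclear receptors of the PPAR family or to lipid droplets, which Plin2 coats. Fabp4 is known from fat cells, macrophages and the endothelium of small vessels, Fabp5 from epithelia, lens and retina, Fabp3 from heart and muscle, and Fabp7 from glia. Several of these genes, among them Angptl4, Plin2 and Fabp4, are also known to respond to low oxygen or to PPARs in other tissues.

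Promoter windows of the RefSeq annotation (build GRCm38.p6), each from 250 bases before to 50 bases after an annotated start, were at hand for 4 of the 8 genes, namely Fabp3, Fabp7, Cd36 and Plin2. A window describes that start alone, which need not be the outermost of the gene. That of Cd36 (chr5:17835847-17836146, minus strand) lies inside the gene, which spans 17781690 to 17888959. They were searched on both strands for ACGTG and GCGTG, the core letters to which hypoxia-inducible factors bind, and for a direct repeat of AGGTCA with 1 base between the copies, the element that PPAR and RXR dimers bind. The window of Plin2 held ACGTG 2 times, once on each strand of the same 6 bases, and GCGTG once, while those of Fabp3, Fabp7 and Cd36 held neither. No window of these 4 genes held the direct repeat. Of all 32851 windows, 19.6% held ACGTG, 32.4% GCGTG, 43.8% at least one of both and 0.0396% the direct repeat. The windows of Plin2 (chr4:86670010-86670309, minus strand) and Fabp3 (chr4:130308488-130308787, plus strand) are shown because both genes were measured well on the arrays and differ in these letters. Capitals mark the matches, where GCGTG on the opposite strand reads CACGC and the overlapping pair of ACGTG reads CACGTG.
Plin2: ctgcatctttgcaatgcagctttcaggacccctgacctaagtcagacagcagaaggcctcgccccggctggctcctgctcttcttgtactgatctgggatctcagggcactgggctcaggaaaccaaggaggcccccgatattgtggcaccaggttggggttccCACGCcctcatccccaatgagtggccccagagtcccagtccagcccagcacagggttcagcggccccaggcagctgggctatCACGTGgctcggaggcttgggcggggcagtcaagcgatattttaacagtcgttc
Fabp3: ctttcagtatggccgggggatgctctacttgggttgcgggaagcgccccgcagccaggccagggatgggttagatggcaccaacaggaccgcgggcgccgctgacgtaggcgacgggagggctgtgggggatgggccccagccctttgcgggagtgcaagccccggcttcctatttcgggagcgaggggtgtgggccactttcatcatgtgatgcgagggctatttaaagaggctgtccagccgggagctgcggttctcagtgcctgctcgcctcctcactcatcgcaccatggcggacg
A match is a string of letters and not a shown binding site, and the signals of Plin2 and Fabp3 are given below with those of the other genes.

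Of the 8 genes Fabp4 had the widest differences. Its log2 signal was higher by 1.81 immediately after hypoxia (0 h) and by 1.91 after 2 h of reoxygenation, while 4 h and 16 h gave 0.76 and 0.12. Lpl was higher by 0.37 at 0 h. By the brightest probe set of each gene, signals of Fabp3 and Plin2 differed by at most 0.10 at any time. Fabp5 varied widely between pools of the same group, and Fabp7, Cd36 and Angptl4 stayed below the signal threshold.

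A comparison was tested with limma where the mean of either treatment reached a log2 signal of 6.69, the minimum between the peaks of the distribution of all values, and it was called at a Benjamini-Hochberg adjusted p under 0.05. By the probe set with the highest mean signal, 5 of the 8 genes passed this filter at 0 h and at 2 h (Fabp3, Fabp4, Fabp5, Lpl and Plin2) and 4 at 4 h and 16 h. Fabp4 passed it only through its hypoxic mean, so its passing already required a difference. At 0 h, 2 of the 5 were called, both higher, where 32.4% of all probe sets tested were called and 15.2% were called higher. At 2 h, 1 of the 5 was called, where the shares were 16.6% and 9.19%. Neither at 4 h (1.43% of all called) nor at 16 h (0% of all called) was a member called by limma, and at an unadjusted p under 0.05 the counts were 0 of 4 and 1 of 4, while the methods' t-test called 0 of 4 at both times. The median log2 change of all probe sets tested was -0.01 at 0 h, 0.01 at 2 h, and 0.02 at both later times.

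Counted over the brightest probe set of all 8 genes whatever its signal, the 3 hypoxic pools lay above the 3 normoxic pools in 3 genes at 0 h (Fabp4, Lpl and Angptl4), where 13.9% of all probe sets did. At 2 h this held for Fabp4 and Angptl4 (12.8% of all), at 4 h for Fabp4 and Lpl (10.5%) and at 16 h for Fabp3 and Fabp7 (4.75%). The hypoxic pools lay below in Fabp7 at 4 h (7.26% of all) and in Plin2 at 16 h (4.38%), and in none of the 8 at 0 h (15.1%) and 2 h (10.4%).

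**Figure D1:**
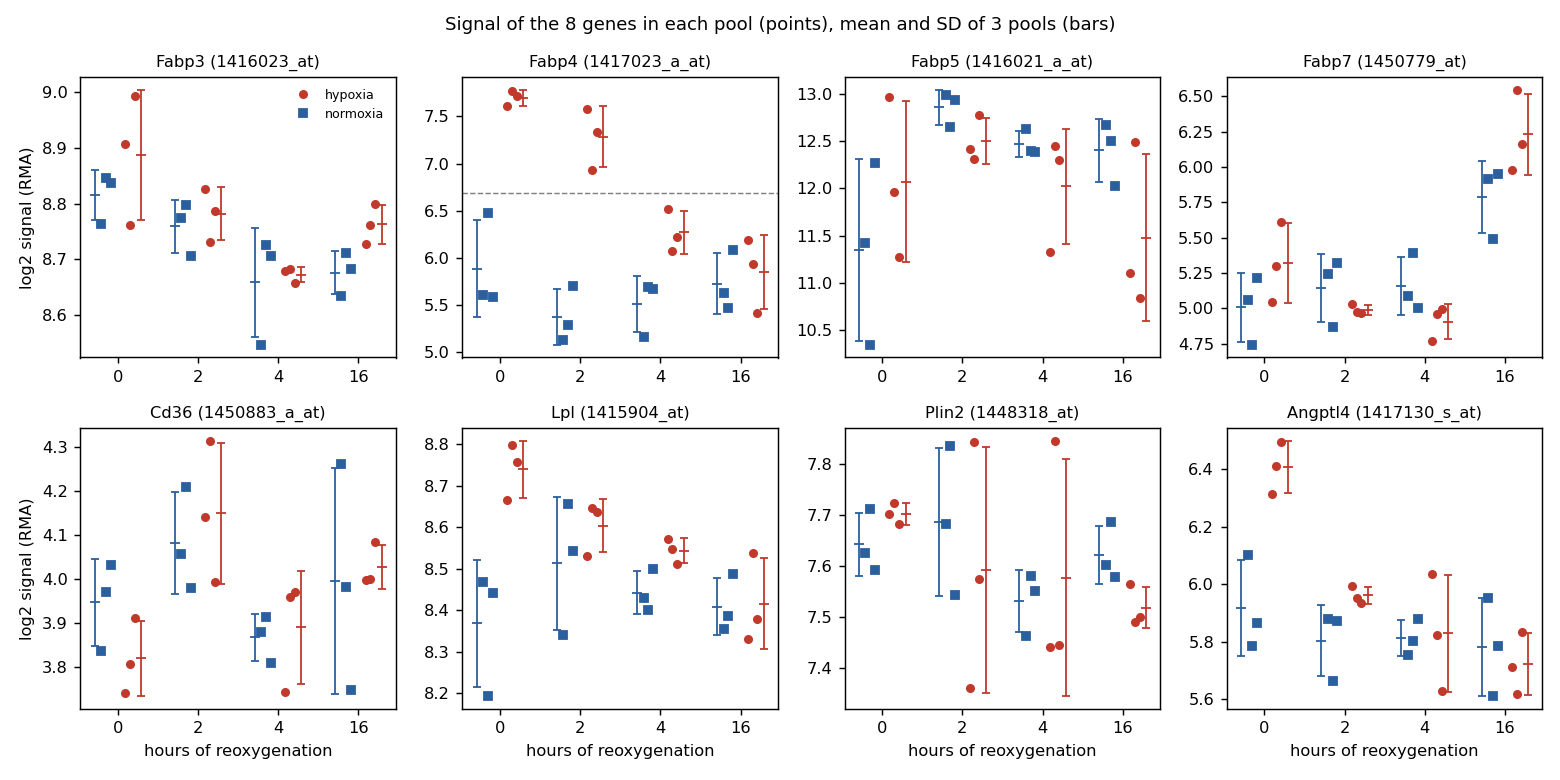
Log2 signal of the 8 genes in each pool (points) against hours of reoxygenation, for hypoxic (red circles) and normoxic (blue squares) retinas, with the mean and SD of 3 pools as bars and each panel on its own scale. The dashed line, drawn where it falls within a panel, is the signal threshold of 6.69. Fabp4 is the panel in which all hypoxic pools at 0 h and 2 h lie above the line and all normoxic pools below it.

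Fabp4 codes for the fatty acid binding protein of fat cells and capillary endothelium. Its brightest probe set read 7.60, 7.77 and 7.72 in the hypoxic pools at 0 h and 5.60, 6.48 and 5.58 in the normoxic pools. At 2 h the hypoxic pools read 7.58, 6.94 and 7.34 and the normoxic pools 5.13, 5.29 and 5.70. At both times the hypoxic pools were all above the normoxic ones, with a gap wider than the spread of either group. The log2 change was 1.81 (SE 0.24, 95% interval 1.32 to 2.30) at 0 h and 1.91 (SE 0.24, 1.42 to 2.40) at 2 h, and both were called. The normoxic means of 5.89 and 5.37 were below the signal threshold, and taken against that threshold Fabp4 was at least 2.01-fold higher at 0 h and at least 1.51-fold higher at 2 h.

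After 4 h of reoxygenation the hypoxic pools read 6.52, 6.07 and 6.22 and the normoxic pools 5.16, 5.69 and 5.67. All hypoxic pools were still above the normoxic pools, but both means were below the threshold and the difference of 0.76 (SE 0.24) was not tested. At 16 h the pools overlapped, with 6.19, 5.94 and 5.42 after hypoxia and 5.63, 5.46 and 6.09 in normoxia. In order of their means, the groups were hypoxia at 0 h (7.70 ± 0.08, SD, n = 3), hypoxia at 2 h (7.28 ± 0.33), hypoxia at 4 h (6.27 ± 0.23), normoxia at 0 h (5.89 ± 0.51), hypoxia at 16 h (5.85 ± 0.39) and normoxia at 16 h (5.73 ± 0.32), 4 h (5.51 ± 0.30) and 2 h (5.37 ± 0.29). The pools of neighbours in this order did not overlap between hypoxia at 0 h and 2 h (lowest 7.60 against highest 7.58) or between hypoxia at 2 h and 4 h, and overlapped in every later pair.

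The hypoxia effect on Fabp4 at 4 h minus that at 0 h was -1.05 (SE 0.34) and at 16 h it was -1.69 (SE 0.34), and both had the status of called, where 16.9% and 20.6% of all probe sets tested were called. Fabp4 was chosen on these effects and reached the test only through its hypoxic means, so nothing is read from either call. The effect at 2 h minus that at 0 h was 0.10 and was not called (8.21% of all called). The call at 4 h was lost in 9 of 12 fits that left out 1 array, namely without any hypoxic pool at 0 h, without normoxic pool 1 or 3 at 0 h, and without hypoxic or normoxic pool 2 or 3 at 4 h, and it was also lost with no signal filter.

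Fabp4 has 3 further probe sets, and they did not all move alike. The second brightest set read 7.16, 6.85 and 6.72 in the hypoxic pools at 0 h and 5.86 ± 0.06 (SD, n = 3) in the normoxic pools, so that the groups were apart. Its log2 change was 1.05 (SE 0.18) at 0 h, which was called (at least 1.16-fold against the threshold), and 0.42 at 2 h, 0.05 at 4 h and 0.13 at 16 h, which were not tested. The third set was below the threshold throughout and gave 1.15, 1.07, 0.27 and 0.02 in the same order, with all hypoxic pools above the normoxic ones at 0 h and 2 h. The dimmest set, at log2 signals near 4, gave -0.43, -0.15, -0.19 and 0.05, and at 0 h its hypoxic pools were all below the normoxic ones. Over the 24 arrays, which share the hypoxia groups, the brightest set had a Pearson correlation of 0.836 with the second, 0.902 with the third and -0.461 with the dimmest. When the 4 sets were averaged, the change was 0.90 at 0 h and 0.81 at 2 h, with means below the threshold, so that no test was made.

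**Figure D2:**
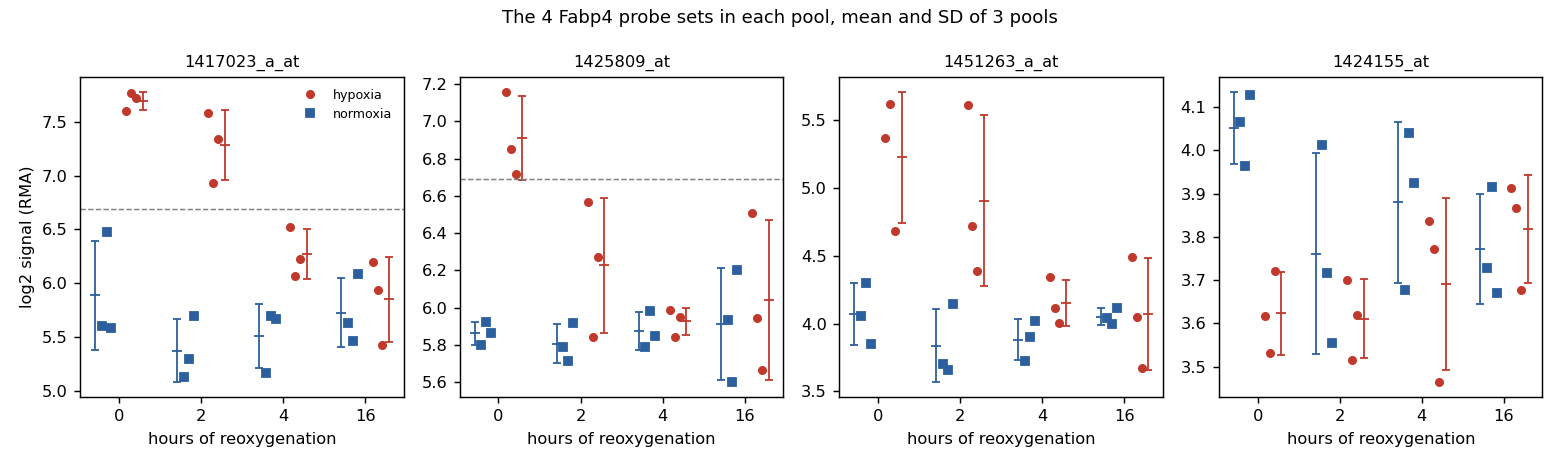
Log2 signal of the 4 Fabp4 probe sets in each pool against hours of reoxygenation, hypoxic pools as red circles and normoxic pools as blue squares, with the mean and SD of 3 pools and a separate scale for each panel. The dashed line, drawn where it falls within a panel, is the signal threshold of 6.69. The hypoxic pools at 0 h are above the normoxic pools in 3 panels and below them in the last, whose signals are between 3.46 and 4.13.

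The markers of the cells that Fabp4 is known from were measured on the same arrays. In bulk tissue fewer cells of a type and less RNA per cell cannot be told apart. The mean of 15 endothelial markers was 6.48 to 6.64 in the hypoxic and 6.51 to 6.63 in the normoxic pools at 0 h, so the groups overlapped. Of the 7 endothelial markers tested at 0 h none was called higher and 2 were lower (28.6% called, where 32.4% of all probe sets were), the VEGF receptor Kdr (log2 change -0.71, adjusted p = 0.000224, limma) and the organic anion transporter Slco1a4 (-0.53, adjusted p = 0.00101). At 2 h the endothelial mean was 6.43 to 6.53 against 6.46 to 6.50, and the same 2 genes were lower. The defining endothelial markers Pecam1 and Tek were below the threshold at both times, were not tested and went opposite ways, with pools that did not overlap. Pecam1 was 0.80 higher after hypoxia at 0 h (6.48 against 5.67) and 0.83 higher at 2 h, but 0.10 and 0.13 at 4 h and 16 h with overlapping pools. The angiopoietin receptor Tek differed by -0.94 at 0 h (5.55 against 6.49) and by -0.38 at 2 h. The part of these markers in the Fabp4 result was not tested. The mean of 9 adipocyte markers was 4.77 to 4.85 against 4.79 to 5.02, and Adipoq, their defining hormone, had means of 3.62 and 3.45. Of the 2 adipocyte markers tested at 0 h the hormone-sensitive lipase Lipe was lower (-0.46, adjusted p = 0.00328), and resistin (Retn) read 7.55 and 7.45. The mean of 14 microglia and macrophage markers was 6.16 to 6.29 after hypoxia and 6.13 to 6.73 in normoxia, again overlapping. By the mean over all arrays, 7 of the 15 endothelial, 1 of the 9 adipocyte and 4 of these 14 markers reached the threshold. Most signals in the 3 means were thus dim, and the means could miss a change in these cells.

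Markers of the retinal pigment epithelium (RPE), the pigmented layer behind the photoreceptors, moved with hypoxia at 0 h. Of 8 that were tested 7 were higher, among them the isomerase Rpe65 by 3.48 (adjusted p = 2.38e-05) and the transthyretin gene Ttr by 3.75 (adjusted p = 8.45e-06). For the RPE genes Rgr and Lrat the study proposes that more RPE cells may have come along when retinas were isolated after hypoxia. It asks for caution with fold changes for that reason, and this was not tested here. The mean of all 14 RPE markers was 7.99 to 8.21 in the hypoxic and 6.36 to 6.56 in the normoxic pools. With this mean as a covariate, a fit added after the data had been seen, the change of Fabp4 at 0 h was 2.20 (SE 0.44) and still called, and that at 2 h was 2.06 (SE 0.27). At 0 h the covariate did not overlap between the treatments, so the fit can barely part it from hypoxia, and the SE of Fabp4 rose from 0.24. Nothing is therefore read from calls kept or lost in this fit at 0 h, for Fabp4 or any other gene.

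Some other marker means were also apart between the treatments. At 0 h the Müller glia mean was 11.20 (median of the hypoxic pools) against 11.06, with the carbonic anhydrase gene Car14 higher by 1.19 (adjusted p = 6.86e-08) and the filament gene Vim by 0.56 (adjusted p = 0.0473, with overlapping pools), the only 2 of 14 called. That is 14.3%, below the 32.4% of all probe sets called at 0 h. The gene Rlbp1 is in both the Müller glia and the RPE list, so the means of these lists are not separate. The fibroblast mean at 0 h was 6.00 to 6.14 against 5.84 to 5.99, and of 4 markers tested the matrix protein gene Mgp was higher by 0.71 (adjusted p = 0.00027) and the growth factor receptor gene Pdgfra by 0.63 (adjusted p = 0.0262), or 50% called. At 2 h the skeletal muscle mean was higher in all hypoxic pools (medians 5.04 and 4.90). At 16 h the erythroid mean was higher (4.68 and 4.48) and the fibroblast mean lower (5.98 and 6.11) in all hypoxic pools. By the mean over all arrays, 2 of 12 skeletal muscle, 0 of 5 erythroid and 4 of 8 fibroblast markers reached the threshold, so these means are mostly dim signal. Of single probe sets, 12.8% had all hypoxic pools above at 2 h. At 16 h 4.75% had them above and 4.38% below. The part of these markers in the values of the lipid genes was not tested.

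Lpl codes for the enzyme that frees fatty acids from circulating triglyceride. Its brighter probe set read 8.66, 8.80 and 8.76 in the hypoxic pools at 0 h and 8.47, 8.19 and 8.44 in the normoxic pools. The groups did not overlap, and the log2 change of 0.37 (SE 0.09, 95% interval 0.19 to 0.56), or 1.29-fold, was called. It was 0.09 at 2 h, 0.10 at 4 h and 0.01 at 16 h, each with an SE of 0.09 and none called, and at 4 h the hypoxic pools (8.57, 8.55 and 8.51) were again all above the normoxic pools (8.43, 8.40 and 8.50). The normoxic means lay between 8.37 and 8.51. The change at 0 h was 0.28 to 0.42 in the 6 fits that left out 1 of its arrays. Its call was lost with the RPE marker mean as a covariate, where the change was 0.24 (SE 0.17), a fit that barely parts that mean from hypoxia at 0 h.

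The hypoxia effect on Lpl at 16 h minus that at 0 h was -0.36 (SE 0.13) and had the status of called, from which, as for Fabp4, nothing is read, and it lost it in 8 of 12 fits that left out 1 array (hypoxic pool 2 or 3 or normoxic pool 2 at 0 h, and hypoxic pool 1 or 3 or any normoxic pool at 16 h). The second Lpl probe set was below the threshold and gave 0.35 at 0 h with overlapping pools.

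Angptl4 codes for the secreted inhibitor of lipoprotein lipase and is a known target of PPARs and of hypoxia-inducible factors. Its brighter probe set read 6.32, 6.41 and 6.50 in the hypoxic pools at 0 h and 6.10, 5.78 and 5.87 in the normoxic pools. The pools did not overlap and the log2 difference was 0.49 (SE 0.11, 95% interval 0.27 to 0.72), but both means were below the signal threshold, so the difference was not tested. It was called when the signal filter was left out. At 2, 4 and 16 h the difference was 0.16, 0.02 and -0.06. The second probe set stayed near a log2 signal of 3 and differed by 0.08 at 0 h.

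Cd36, the fatty acid receptor of capillaries, macrophages and RPE, was below the threshold in all groups. The group means of its 3 probe sets lay between 3.22 and 4.15. The probe set with the highest mean differed by -0.13, 0.07, 0.02 and 0.03 at 0, 2, 4 and 16 h (SE 0.11), and its pools overlapped each time. The dimmest set read lower in all hypoxic than in all normoxic pools at 2 h, with a difference of -0.27. Cd36 was too dim for a test at any time.

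Fabp5, the epidermal fatty acid binding protein, gave the widest spread of the 8 genes between pools of a group. Its brighter probe set read 12.97, 11.97 and 11.28 in the hypoxic pools at 0 h and 11.43, 10.35 and 12.27 in the normoxic pools. At 16 h it read 11.11, 12.49 and 10.84 after hypoxia and 12.67, 12.50 and 12.03 in normoxia. The pools of both treatments overlapped at each of the 4 times. At 2 h and 4 h the hypoxic pools read 12.41, 12.31 and 12.77 and 11.33, 12.45 and 12.30, and the normoxic pools 12.99, 12.65 and 12.93 and 12.63, 12.39 and 12.38. From the earliest to the latest time the log2 changes were 0.72, -0.36, -0.44 and -0.92, each with an SE of 0.44, and none was called.

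The SD of Fabp5 within groups was 0.61, which is higher than that of 99.7% of the 19332 probe sets that reached the threshold in some group, whose median was 0.13. In the second probe set the changes were 0.89, -0.48, -0.51 and -1.09, none called, and the hypoxic pools at 2 h were all below the normoxic ones. It had an SD of 0.74 and a Pearson correlation of 0.987 with the first over the 24 arrays. The other 3 binding proteins had values of 0.06 (Fabp3), 0.33 (Fabp4) and 0.22 (Fabp7).

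The genes whose signals followed Fabp5 most closely over the 24 arrays, among 10336 genes, were the lens membrane protein gene Lim2 (r = 0.966), the surface protein gene Cd24a (0.966) and Tent5c (0.957). After the group means were removed these values were 0.947, 0.957 and 0.926. Among 10 lists of cell type markers, the mean of 15 lens markers, chiefly crystallins, was the one with the highest correlation, with a Pearson r of 0.934 and a Spearman rho of 0.969 over 24 arrays. Both had a permutation p of 1e-05, the smallest that 100000 resamples can give, and an adjusted p of 0.0001 over the 10 lists. The resamples shuffled all 24 arrays without regard to their groups, so differences between groups enter these p-values. Without the 2 arrays farthest from the median of the lens mean (normoxia at 0 h pool 2 and hypoxia at 16 h pool 3) r was 0.98, and within groups it was 0.906.

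The lens mean itself ranged from 7.94 in normoxic pool 2 at 0 h to 12.96 in hypoxic pool 1 at 0 h, and none of the 15 lens markers was called by limma at any time, although 12 of them had an unadjusted p under 0.05 at 0 h and 0 at the other times. With the lens mean as a covariate, chosen after the data had been seen, the hypoxia change of Fabp5 was -0.19 (SE 0.22) at 0 h, -0.20 at 2 h, -0.18 at 4 h and -0.34 (SE 0.21) at 16 h. The sign at 0 h thus differed from that of the fit without the covariate, and neither value was called. The change of Fabp4 at 0 h in that fit was 2.12 and that of Lpl 0.30, both called.

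Of the other 9 lists, 3 had an adjusted p under 0.05 by the same permutations across all groups. Differences between groups enter these p-values too, and the values within groups were not tested. The Müller glia mean had an r of 0.597 (p = 0.00214, adjusted p = 0.0107, rho 0.609), which was 0.428 without the 2 farthest arrays and 0.385 within groups. The fibroblast mean had an r of 0.566 (p = 0.00349, adjusted p = 0.0115, rho 0.519), then 0.683 and 0.127, and the endothelial mean one of -0.556 (p = 0.00459, adjusted p = 0.0115, rho -0.517), then -0.467 and -0.407.

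**Figure D3:**
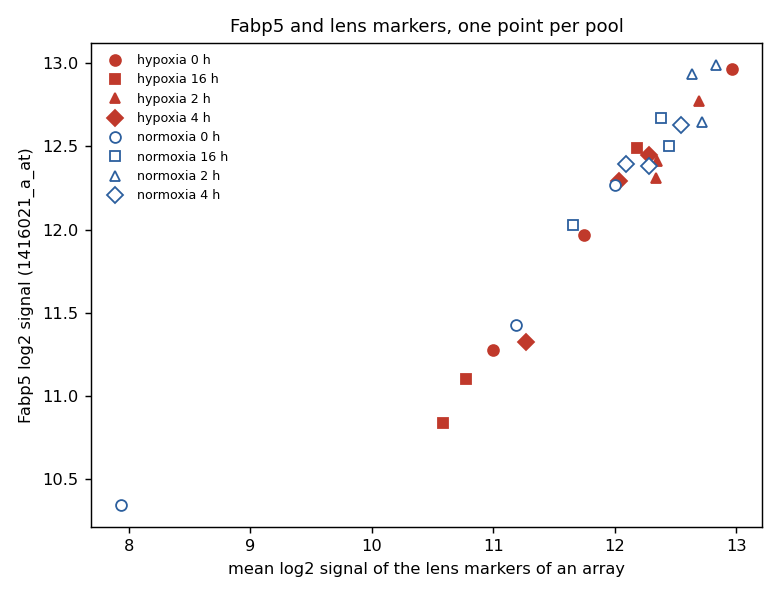
Log2 signal of Fabp5 (brighter probe set) against the mean log2 signal of 15 lens markers, 1 point for each of the 24 pools, with the treatment and hours of reoxygenation given by colour and shape. The points lie along a rising line (r = 0.934), and normoxic pool 2 at 0 h is at the far left with a lens mean of 7.94.

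Fabp3, the fatty acid binding protein of heart muscle, was steady. Its brighter probe set lay between 8.55 and 8.99 in all 24 pools, and the log2 changes were 0.07, 0.02, 0.01 and 0.09 at the 4 times, each with an SE of 0.07. Within groups its SD of 0.06 was at the percentile of 4.42 among probe sets above the threshold. At 16 h the hypoxic pools (8.73, 8.76 and 8.80) were all above the normoxic pools (8.63, 8.71 and 8.68), with a 95% interval of -0.06 to 0.24 for the difference. A second probe set was below the threshold, with group means of 4.91 to 5.22. It differed by 0.16, 0.20, 0.15 and -0.16 at the 4 times (SE 0.12), with overlapping pools, and was not tested.

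Fabp7, the fatty acid binding protein of radial and Müller glia, has a single probe set, which was below the threshold in every group. It read 4.74 to 5.61 in all pools at 0 h, with a difference of 0.31, and differed by -0.15 at 2 h and -0.25 at 4 h. At 16 h the hypoxic pools read 5.98, 6.55 and 6.16 and the normoxic pools 5.91, 5.49 and 5.95. Hypoxia minus normoxia at 16 h was 0.44 (SE 0.17) and was not tested. Within each treatment all pools at 16 h were above those of the earlier times.

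Plin2 codes for the coat protein of lipid droplets in cells other than fat cells. Its probe set read 7.70, 7.72 and 7.68 in the hypoxic pools at 0 h and 7.62, 7.71 and 7.59 in the normoxic pools. These overlapped, and the change of 0.06 (SE 0.11, 95% interval -0.17 to 0.29) was not called, nor were those of -0.09, 0.05 and -0.10 at the later times. The hypoxic pools spread most at 2 h (7.36, 7.84 and 7.57) and at 4 h (7.44, 7.84 and 7.44). At 16 h the hypoxic pools (7.56, 7.49 and 7.50) were all below the normoxic pools (7.60, 7.69 and 7.58). The window of Plin2 printed above with its matches to the hypoxia core letters thus belongs to a gene with no called change.

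**Figure D4:**
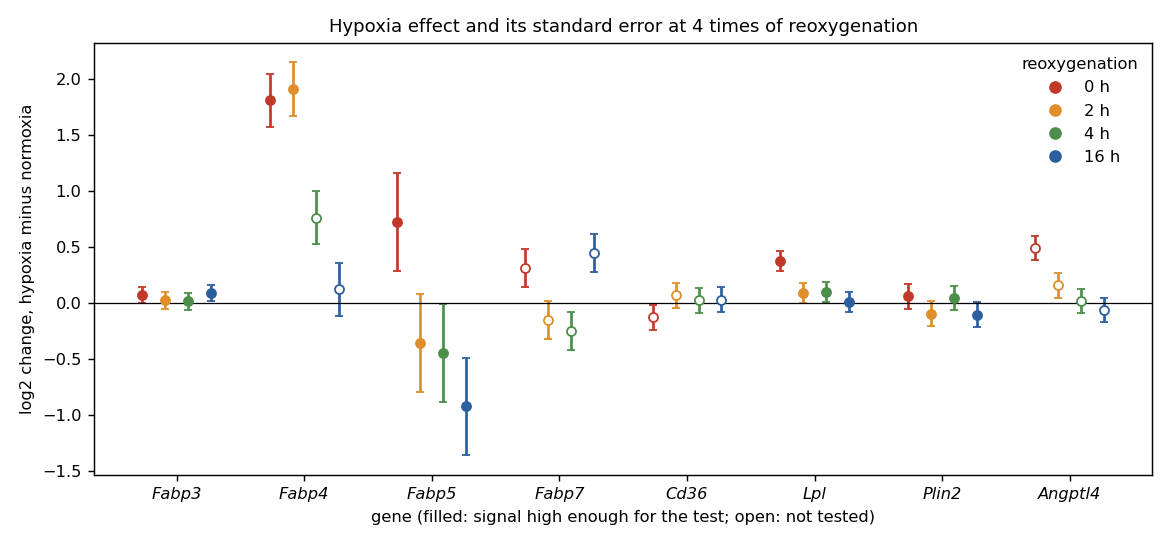
Hypoxia minus normoxia on the log2 scale (y axis) for the 8 genes (x axis) at 0, 2, 4 and 16 h of reoxygenation (colours), with bars of 1 SE. Filled points had a signal high enough for the test and open points did not. Fabp4 at 0 h and 2 h lies at 1.81 and 1.91, and the bars of Fabp5 are the longest.

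The normoxic controls were compared among themselves, a comparison on which the genes were not chosen. The same normoxic values did enter the hypoxia differences that the choice used, so the p-values here are not wholly free of it. Of all probe sets 3.54% differed between the normoxic groups by limma's F test. Among the 8 genes 4 could be tested and none was called, with 1 at an unadjusted p under 0.05, and the adjusted p was 0.132 for Fabp5, 0.407 for Fabp3, 0.716 for Lpl and 0.796 for Plin2. Normoxic Fabp5 was 1.51 higher at 2 h than at 0 h (adjusted p = 0.114), 1.12 higher at 4 h and 1.05 higher at 16 h, none of them called, where 0.374%, 1.39% and 3.93% of all probe sets were. The lens mean was 7.94 to 12.00 in the normoxic pools at 0 h and 12.63 to 12.83 at 2 h, and limma's F test called 0 of the 15 lens markers, with 15 at an unadjusted p under 0.05. Normoxic Fabp7 was 0.78 (SE 0.17) higher at 16 h than at 0 h, and with no signal filter limma gave an adjusted p of 0.0348 for this difference (0.728% of all probe sets called) and 0.0627 for the F test (0.662%).

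By their course over the 24 arrays, and with the hypoxia response included, the genes nearest to Fabp4 were Wdr37 (r = 0.949), Frg2f1 (0.942) and Thtpa (0.941), and within groups these values were 0.619, 0.562 and 0.573. Those nearest to Lpl were 2610528A11Rik (0.802), the triglyceride lipase gene Pnpla2 (0.80) and the mitochondrial gene Higd1a (0.796), and within groups these were 0.432, 0.186 and 0.311. Fabp3 was nearest to Tmem97 (0.808), Ccdc166 (0.804) and Gpcpd1 (0.797), with 0.602, 0.548 and 0.533 within groups. Plin2 was nearest to Nmi (0.738), Wwp2 (0.715) and Gas8 (0.689), with 0.831, 0.789 and 0.681 within groups.

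Fabp4 and Fabp5 lie next to 3 other genes of their family, in the order Fabp5, Pmp2, Fabp9, Fabp4 and Fabp12, with no further protein-coding gene between them in the RefSeq annotation. Fabp12, a family member found in retina and testis, went the opposite way to Fabp4. It read 9.14, 9.06 and 8.94 in the hypoxic pools at 0 h and 10.16, 10.18 and 9.95 in the normoxic pools, so that the groups were well apart. It fell by 1.05 at 0 h (SE 0.09, adjusted p = 1.89e-08, limma) and by 0.62 at 2 h (adjusted p = 0.000104), both kept without any single array (the methods' t-test kept the first), and was -0.16 and 0.07 at 4 h and 16 h (adjusted p = 0.383 and 0.948). The myelin protein gene Pmp2 was below the threshold and read 5.77, 5.71 and 5.92 after hypoxia and at most 5.07 in normoxia at 0 h, a difference of 0.79 (SE 0.12) that was not tested, and Fabp9 differed by 0.52 at a log2 signal near 4.

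The other genes of fatty acid handling were taken from 7 lists of 130 genes, 117 of which had a probe set. The lists were chosen with earlier results of these data known, so the p-values of their genes are not independent evidence. At 0 h, 16 of the 80 tested were higher and 9 lower, at 2 h 9 of 76 were higher and 8 lower, and at 4 h 3 of 78 were higher and 1 lower. At 16 h limma called 0 of 76, with 4 at an unadjusted p under 0.05, and the methods' t-test with adjustment called none of all probe sets. Of all probe sets 15.2% were called higher and 17.2% lower at 0 h, 9.19% and 7.38% at 2 h, and 0.876% and 0.551% at 4 h. The share of the lists' genes called in either direction was 31.2% against 32.4% of all probe sets at 0 h, 22.4% against 16.6% at 2 h and 5.13% against 1.43% at 4 h. The lists count 1 probe set for each gene and the background counts every probe set tested, so the shares are not of the same unit. At 0 h the share was near the background, so the count is no result about the lists. At 2 h and 4 h the counts fell to 4 to 12 and 1 to 3 without single arrays, and no excess is read from them either. The counts of single lists below are read against the same shares. The median log2 change of the lists together was 0.04, -0.06 and 0.04 at 0, 2 and 4 h. At 0 h 16 of the 25 calls were kept in every fit without 1 array, and 9 were kept with the RPE marker mean as a covariate (Fabp12, Mfsd2a, Vldlr, Pnpla2, Pnpla3, Dgat2, Lpin1, Slc25a20 and Ppard). The covariate was apart between the treatments at 0 h, so these 9 do not tell genes free of the RPE from the rest. At 2 h Fabp12, Cav1 and Pnpla2 among 17 were kept without any 1 array, Cebpd was lost without normoxic pool 3, and each of the other 13 was lost in 3 or more of the 6 fits. At 4 h Acadm among 4 was kept. The methods' t-test with adjusted p kept 11 of the 25 calls at 0 h (Acsl3, Cebpd, Dgat2, Etfa, Fabp12, Lpin1, Mfsd2a, Plin4, Pnpla2, Pnpla3 and Vldlr), 0 of 17 at 2 h and 0 of 4 at 4 h. At 0 h Mfsd2a, Plin4 and Cebpb reached the test only through their hypoxic means and Lipe only through its normoxic mean, so for them passing already required a difference.

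In the transport and activation list 5 of 13 tested genes were higher at 0 h and 2 lower (53.8% called). Mfsd2a, the transporter of lysophospholipids that carry docosahexaenoic acid into the retina, read 6.94, 7.07 and 7.29 against 6.09, 5.83 and 6.26. The hypoxic pools were all above, by a mean of 1.04 (adjusted p = 2.81e-07), with a bound of at least 1.33-fold because the normoxic mean was below the threshold. The fatty acid transporter Slc27a1 rose by 0.54 (adjusted p = 0.000323), the acyl-CoA synthetase Acsl3 by 0.46 (adjusted p = 0.000408), the VLDL receptor Vldlr by 0.46 (adjusted p = 0.000249) and the HDL receptor Scarb1 by 0.41. The synthetase Acsl4 fell by 0.44 and the caveolin gene Cav1 by 0.34, and these calls were lost without pool 3 of either treatment (Acsl4) or pool 2 of either treatment (Cav1). At 2 h Vldlr (0.25) and Cav1 (-0.43) were called. With the RPE marker mean as a covariate the change of Acsl4 was 0.0034.

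Among 16 tested genes of lipid droplets 5 were higher and 3 lower at 0 h (50% called). Pnpla2, the lipase that starts the breakdown of stored triglyceride, read 8.04, 7.96 and 8.19 after hypoxia and 7.30, 7.26 and 7.23 in normoxia. It rose by 0.80 at 0 h (adjusted p = 3.64e-07) and by 0.37 at 2 h (adjusted p = 0.00472). Its relative Pnpla3 fell by 1.59 at 0 h (adjusted p = 4.39e-06), from 8.42, 8.92 and 8.86 in normoxia to 6.92, 7.38 and 7.14 after hypoxia, and by 0.68 at 2 h. Dgat2, which makes triglyceride, rose by 0.62 (adjusted p = 7.95e-06) and the droplet coat gene Plin4 by 1.08 (adjusted p = 0.000405), though the call of Plin4 was lost without hypoxic pool 3. Gpam, which starts triglyceride synthesis, was called at 0.22 and Lpin1 at 0.39, the first lost in 4 of 6 fits without 1 array and the second without normoxic pool 2. Abhd5, the coactivator of the Pnpla2 lipase, fell by 0.45 and the hormone-sensitive lipase Lipe by 0.46. Against the threshold, which 1 of their groups did not reach, Plin4 was at least 1.01-fold higher and Lipe at least 1.12-fold lower. At 2 h, Lpin2 (-0.47), the hypoxia-inducible droplet gene Hilpda (-0.36), Fitm2 (0.26) and Dgat2 (0.26) were called, and at 0 h Hilpda differed by -0.02.

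Among 18 tested genes of fatty acid oxidation 15 were not called at 0 h (16.7% called). The carnitine carrier Slc25a20 fell by 0.57 (adjusted p = 0.000998) and the electron carrier Etfa by 0.30, the latter call being lost without pool 3 of either treatment, while Hadha was called at 0.20 and lost in all 6 fits without 1 array. Acadm, the medium-chain dehydrogenase, differed by 0.00 at 0 h, and was higher than in normoxia by 0.31 at 2 h (adjusted p = 0.027) and by 0.94 at 4 h (adjusted p = 1.04e-05). At 4 h it read 11.83, 11.55 and 11.76 after hypoxia and 10.79, 10.77 and 10.74 in normoxia. The hypoxic mean was 11.32 at 0 h and 11.71 at 4 h and the normoxic mean 11.32 and 10.77, so the difference at 4 h holds a lower normoxic as well as a higher hypoxic mean. Cpt1a, the gate of fatty acids into mitochondria, was higher by 0.33 at 2 h and 0.46 at 4 h (adjusted p = 0.0273 and 0.0186), and Cpt1c lower at 2 h (-0.29). The means of Cpt1a were lower at 4 h than at 0 h in both groups, 10.74 and 10.99 after hypoxia and 10.28 and 10.76 in normoxia. The call of Cpt1a at 4 h was lost without hypoxic or normoxic pool 1 or 3.

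Of 15 genes of fatty acid synthesis the regulator Srebf1 was higher at 0 h (0.69, adjusted p = 0.000569) with the desaturase Scd2 (0.31), the synthase Fasn was lower at 2 h (-0.30) and Scd2 lower at 4 h (-0.43). Of the lipoprotein lipase partners Lipa, the lysosomal lipase, was lower at 0 h (-0.39, adjusted p = 0.0455), and Gpihbp1, which anchors lipoprotein lipase to capillaries, differed by 0.10 below the threshold, with a hypoxic mean of 5.10. Of 8 PPAR and RXR genes tested at 0 h 3 were higher (37.5% called), Cebpd by 1.40 (adjusted p = 0.000735), Cebpb by 0.81 (adjusted p = 0.000761, at least 1.34-fold against the threshold) and the receptor Ppard by 0.60 (adjusted p = 0.000283). Cebpd and Cebpb are transcription factors of stress and fat cell formation rather than PPARs. Pparg and Ppara were below the threshold with means of 4.01 against 3.99 and 4.71 against 4.45 at 0 h. At 2 h Cebpd (1.13), Ppard (0.36) and Ppargc1a (0.24) were called and at 4 h Rxrb (0.31), and the lipid carrier Scp2 of the binding protein list was lower at 2 h (-0.26). The calls of Scd2 at 0 h and 4 h, of Lipa and of Rxrb were each lost in 4 or more of the 6 fits without 1 array.

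**Figure D5:**
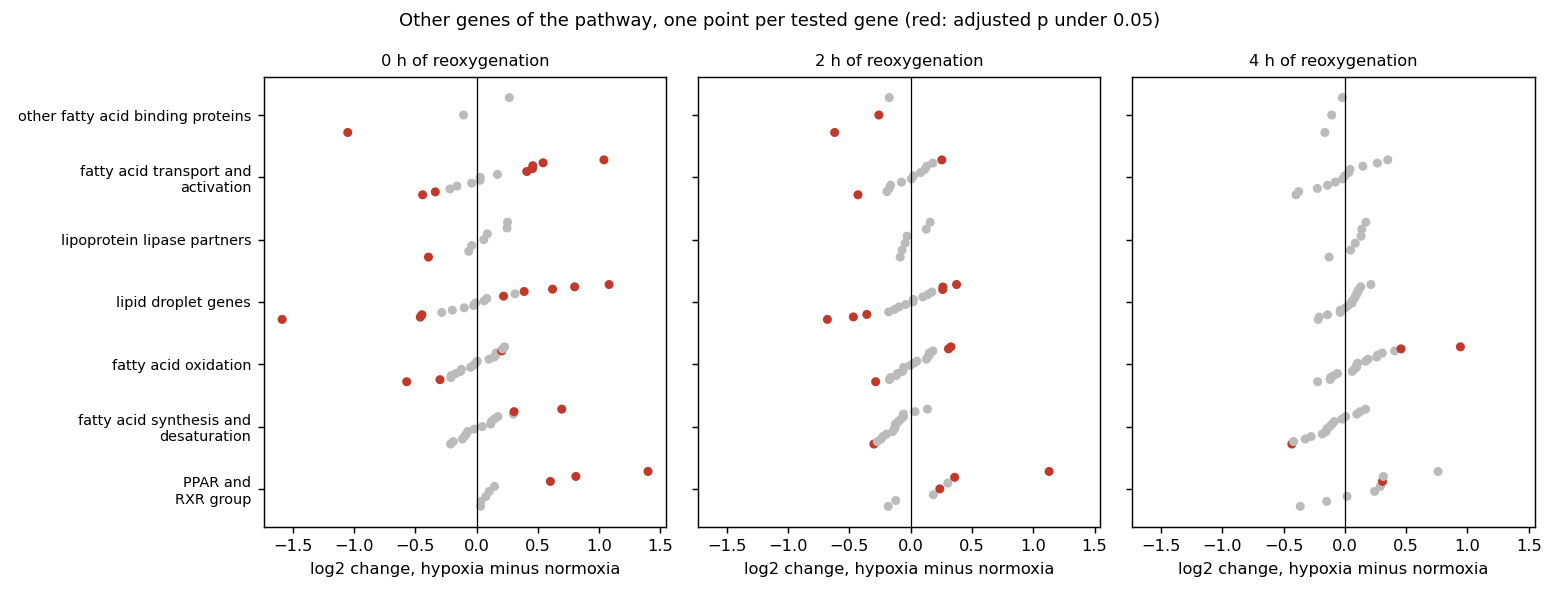
Hypoxia minus normoxia on the log2 scale at 0, 2 and 4 h of reoxygenation (panels) for the tested genes of 7 lists (rows), 1 point for each gene, red where limma's adjusted p was under 0.05. At 0 h red points stand on both sides of zero in the transport, droplet and oxidation rows, and at 4 h 4 red points remain.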

How the data were processed

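Gene expression in mouse retinas was read on 24 Affymetrix arrays, with a pool of 3 retinas on each. The log2 values were made by the authors with RMA, per the labels, a method that subtracts background, sets the arrays to one distribution and summarizes each probe set. Its version is not given in the sources used here. The study's own gene lists rest on GCRMA values, which are not used here. Array medians lay between 5.79 and 5.83. On arrays the signal over background stands in for depth, and the number of arrays limits the precision.

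The 64 control probe sets were left out. Symbols came from the array annotation, where 34945 probe sets have 1 symbol, 932 several and 9160 none, and a gene is represented by its single-symbol probe set with the highest mean over all arrays. Following the study's methods, the test at each time took the probe sets with a mean of 6.69 or more in either treatment. One model with 8 group means was fitted to all arrays with limma 3.58.1 in R 4.3.3 (lmFit, eBayes, 16 residual degrees of freedom), with Benjamini-Hochberg adjustment over the probe sets tested. Effects at different times were compared as contrasts of contrasts, and normoxic groups by an F test. The scripts were tested on simulated data.

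The 8 genes and all lists were chosen with earlier results of these data known. Named genes are the 8 members, the called genes of each list, of which up to 4 per time point were fixed by size and the rest were added after their values were seen, and for each member tested the 3 genes of highest correlation. Alternatives were no or a stricter filter, quantile normalization, centring on medians, array weights, a trended robust spread, a replicate block, the 6 arrays of a time point, the methods' t-test, other probe set rules and leaving out each array. The methods' t-test was an ordinary t-test of the 6 arrays on the RMA values, with Benjamini-Hochberg adjustment or an unadjusted p under 0.001. The study used GCRMA values and false discovery rate cutoffs chosen for each comparison, so a call kept here need not meet its criterion. Lens or RPE marker means as covariates and leaving out a pair of normoxic arrays were added after the data had been seen.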

Additional observations from a re-analysis of the deposited data

Results flagged for a closer look

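The hypoxia effect on some probe sets of the lipid genes differed between time points by limma's test of the difference itself, with adjustment over all probe sets tested. These genes were chosen with the hypoxia effects known, so the differences are a description. For Fabp4 the effect minus that at 0 h was -1.05 at 4 h and -1.69 at 16 h by the brightest probe set, and -0.99 and -0.92 by the second brightest. For Lpl it was -0.36 at 16 h.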

How the results depend on the processing

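The change of Acsl4 at 0 h went from -0.44 to 0.0034 with the RPE marker mean as a covariate, and no other called value changed its direction. Of the 8 genes, 2 were called at 0 h, against 1 with adjusted p of the t-test named in the methods (Fabp4), 0 by that test at an unadjusted p under 0.001, 1 when the probe sets of each gene were averaged (Lpl) and 1 with the RPE marker mean as a covariate (Fabp4). At 2 h the count of 1 fell to 0 with a threshold stricter by 1, by both forms of the t-test and by the mean of probe sets. For the effect at 4 h against that at 0 h, 1 gene was called, 0 with no signal filter and with the RPE covariate, and 0 to 1 without single arrays. For 16 h against 0 h, 2 were called, 1 with median centring, without normoxic pool 2 at 0 h and pool 3 at 16 h together, and with either covariate, and 1 to 3 without single arrays, Fabp5 being called in 3 of 12. The cause was not tested.

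Of the pathway genes 25 were called at 0 h, 9 with the RPE covariate and 19 to 24 without single arrays. At 2 h 17 were called, 10 with no signal filter, 4 from the 6 arrays of that time alone, 6 with the RPE covariate and 4 to 12 without single arrays. At 4 h 4 were called, 2 with no signal filter, 7 with a trended and robust spread, 10 with array weights, 1 from the 6 arrays alone and with the RPE covariate, and 1 to 3 without single arrays. All probe sets called at 4 h numbered 264, and 485, 727, 136 and 62 with the trended spread, array weights, the replicate block and the 6 arrays. The methods' t-test called 2803, 156 and 3 at 0, 2 and 4 h with adjusted p and 833, 314, 134 and 20 (16 h) at an unadjusted p under 0.001, where limma called 6091, 3081, 264 and 0. Run on RMA values with these cutoffs, that t-test does not give the counts of the study itself. At 2 h 1325 were called from the 6 arrays alone, and with the RPE covariate 1214, 1793 and 158 at 0, 2 and 4 h. Without single arrays the counts were 4809 to 5501 at 0 h, 1628 to 2701 at 2 h and 81 to 206 at 4 h.

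The replicate numbers did not pair the samples: the deviations of same-numbered hypoxic and normoxic arrays had correlations of -0.227 to 0.237 over 12 pairs, 2 of them above 0.1, and 8 of 24 arrays correlated best with their own number. With the replicate block 0 genes were called for 4 h against 0 h and 1 (Fabp4) for 16 h against 0 h, and 10 and 2 pathway genes were called at 2 h and 4 h.

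Signal limits Cd36, Fabp7 and Angptl4, which were never bright enough to be tested, and the normoxic level of Fabp4.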
